A study of Mus musculus with 2 samples.

Results

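The 9 genes described here encode proteins with which muscle precursor cells touch, hold and fuse with each other: Mymk, Jam2, Jam3, Cdh15, Cdh2, Cdon, Boc, Myof and Dbn1. Their rows were picked by symbol, and the list was drawn up with earlier results of these data known. Each symbol matched a single row among the 32285 gene rows of both count matrices. The study sorted satellite cells, the stem cells that lie along muscle fibres, from the tibialis anterior (TA) muscle of mice 8 weeks of age and profiled them by droplet single-cell RNA-seq (10x Genomics 3′ v2). Quiescent satellite cells (QSCs) came from uninjured muscle. Activated satellite cells (ASCs) came from muscle on day 1.5 after an injection of cardiotoxin (CTX), a toxin that destroys muscle fibres and starts regeneration. Both groups carried the genotype Pax7 CreERT2/+ ;Rosa26 mTmG/+, in which a tamoxifen-inducible Cre is expressed from the Pax7 locus and switches a membrane reporter from red to green. Each group was 1 library made from a pool of several mice, so animals could not be told apart and no test between the groups was possible. The intervals below are exact 95% intervals that cover counting error only.

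In vertebrate muscle, satellite cells that leave quiescence divide as myoblasts, switch on myogenin (Myog) as they commit to differentiation, and then fuse into multinucleated fibres. Mymk, myomaker, is a membrane protein that is needed on both partners of a fusing pair, and myomixer (Mymx) works with it. Adhesion comes first: Jam2 and Jam3 are immunoglobulin receptors that bind each other across cells, Cdh15 (M-cadherin) and Cdh2 (N-cadherin) are calcium-dependent adhesion proteins, and Cdon and Boc are co-receptors that associate with the cadherins and also bind Hedgehog ligands. Myof, myoferlin, is a calcium-sensing ferlin that acts in membrane fusion and repair. Dbn1, drebrin, binds actin filaments and shapes the cell cortex.

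The barcodes kept showed 500 or more genes, and mitochondrial transcripts made up no more than 10% of their UMIs (unique molecular identifiers, counts of distinct transcripts). These were 516 QSC barcodes with 1162091 UMIs (median 2155 per barcode) and 1468 ASC barcodes with 8895815 UMIs (median 3502). Levels are UMIs scaled to a total of 1000000 (CPM), and 3 counts, the limit that a count of 0 allows, correspond to 2.58 CPM in the QSC and 0.337 CPM in the ASC library. Many barcodes did not look like satellite cells: 104 QSC and 954 ASC barcodes had at least 5% of their UMIs from 10 contractile fibre genes, and 46 QSC and 112 ASC barcodes carried markers of a non-muscle cell type. The remaining barcodes, 366 QSC and 402 ASC, are called contractile-low muscle. Among them, barcodes with at least 10 UMIs per 10000 from 15 cell-cycle genes are called cycling (9 QSC, 133 ASC), those with at least 5 Myog UMIs per 10000 Myog-high (1 QSC, 76 ASC) and the others Myog-low (356 QSC, 193 ASC). These names stand for ranges of a score and not for cell types, and none of the 9 genes was used to set them. Pax7, the transcription factor that defines satellite cells, stood at 215 CPM in QSC Myog-low, 74.2 CPM in ASC Myog-low, 16.8 CPM in ASC cycling and 11.2 CPM in ASC Myog-high barcodes. Depth differed between these classes: the median was 23156 UMIs in ASC cycling, 10998.5 in ASC Myog-high and 5122 in ASC Myog-low barcodes. Barcode sequences found in both libraries numbered 4, and they held 1 Cdh15 and 1 Cdon UMI in kept QSC barcodes and 1 Cdh15 UMI in a kept ASC barcode. The 112 ASC non-muscle barcodes held 60.5 CPM of Myog, a gene that macrophages and other such cells should lack, and doublets were not removed.

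The E-box CANNTG is the motif bound by MyoD and myogenin. It was searched in the 250 bases before the RefSeq start (GRCm38.p6) of 4 members, Cdh15, Cdon, Myof and Dbn1. The other members were not searched. CANNTG reads the same on both strands and includes the forms CAGCTG and CACCTG searched below. The Cdh15 window held 3 E-boxes, Dbn1 held 1, and Cdon and Myof held 0. The Cdon window, chr9:35451826-35452075 on the plus strand, lies inside the annotated gene, which begins at 35421128. The bases before that first position were not searched. Over 32851 promoter windows of the same length, 66.2% held CANNTG and 12.2% held 3 or more. The form CACCTG (or CAGGTG on the other strand) was in 17.2% of windows and among the 4 members in Dbn1, and CAGCTG was in 13.0% of windows and in none of the 4. All 250 bases of the Cdh15 window lie in exons of the GENCODE M21 annotation, so only 10 bases on either side of each site are shown. The Dbn1 and Myof sequences are shown because these genes were highest in different ASC classes, Dbn1 in Myog-high and Myof in cycling barcodes. E-boxes are in capitals, and sequences run 5′ to 3′ on the gene's strand.
Cdh15 site 1, chr8:122848128-122848153, plus strand: gcactgatcaCATATGctgtcactca
Cdh15 site 2, chr8:122848229-122848254, plus strand: ggcccacctaCATGTGctgtcactca
Cdh15 site 3, chr8:122848332-122848357, plus strand: ccccaccacaCACGTGcagtcccttg
Dbn1, chr13:55488112-55488326, minus strand, 215 bases up to the first GENCODE exon: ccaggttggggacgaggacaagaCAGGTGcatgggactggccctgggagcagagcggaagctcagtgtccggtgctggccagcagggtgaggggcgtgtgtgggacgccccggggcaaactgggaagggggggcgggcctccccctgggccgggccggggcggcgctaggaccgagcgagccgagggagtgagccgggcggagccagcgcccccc
Myof, chr19:38043578-38043827, minus strand, 250 bases: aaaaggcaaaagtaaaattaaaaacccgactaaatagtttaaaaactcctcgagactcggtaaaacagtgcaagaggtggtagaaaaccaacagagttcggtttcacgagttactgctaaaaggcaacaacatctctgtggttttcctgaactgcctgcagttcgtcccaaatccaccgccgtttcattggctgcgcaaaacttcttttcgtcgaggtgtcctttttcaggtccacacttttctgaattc
A match is a run of letters and was not tested as a binding site. The 4 starts sit in genes on GRCm38 chromosomes 8 (Cdh15, ENSMUSG00000031962, 122847966 to 122867397), 9 (Cdon, ENSMUSG00000038119, 35421128 to 35507652), 19 (Myof, ENSMUSG00000048612, 37899036 to 38043577) and 13 (Dbn1, ENSMUSG00000034675, 55473429 to 55488111). Of the other members, Mymk (ENSMUSG00000009214) lies at chr2:27061636-27072179, Jam3 (ENSMUSG00000031990) at chr9:27097384-27155421, Jam2 (ENSMUSG00000053062) at chr16:84774123-84825928 and Boc (ENSMUSG00000022687) at chr16:44485049-44558897.

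The libraries as a whole differed in opposite directions across the 9 genes. Mymk, Myof and Dbn1 were at least 2-fold higher in the ASC library with an interval above 0 on the log2 scale. Cdon and Boc were at least 2-fold lower in it with an interval below 0. Jam3, Cdh15 and Cdh2 lay within 2-fold or had an interval across 0, and Jam2, with 18 UMIs in all, was under the minimum of 20 UMIs. So 3 of 8 members were called higher and 2 of 8 lower, where 12.4% of all 11189 genes with 20 UMIs were called higher and 21.3% lower. The median gene stood at -0.24 on the log2 scale, and TMM scaling moved every ratio by 0.31 upwards without turning the direction of any member.

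**Figure D1:**
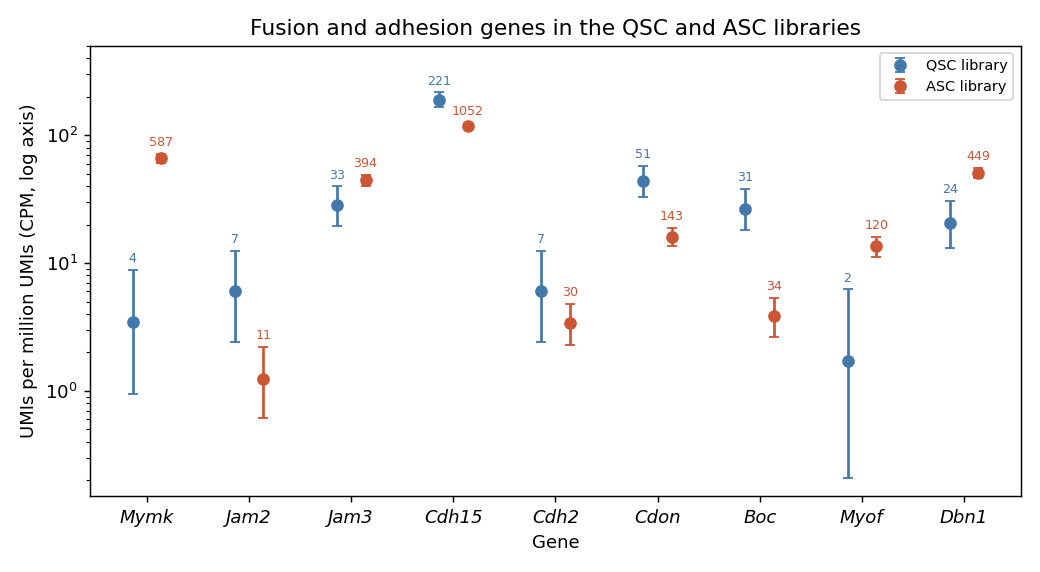
Level of each gene in CPM (log axis) in the QSC library (blue) and the ASC library (orange), 1 library each; bars are exact 95% Poisson intervals and the number above each point is its UMI count. Mymk stood at 3.44 CPM in QSC and 66.0 CPM in ASC, whereas Boc stood at 26.7 and 3.82 CPM.

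Mymk had 4 UMIs in the QSC library (3.44 CPM, 0.938 to 8.81) and 587 UMIs in the ASC library (66.0 CPM, 60.8 to 71.5). The log2 ratio of ASC over QSC was 4.26 (2.90 to 6.14). All 4 QSC UMIs came from a single barcode, which also held 28 Myog UMIs, 6 Dbn1, 2 Jam3 and 2 Cdh15 UMIs, no Pax7 UMI, and 4172 UMIs in all; it was the 1 Myog-high barcode of the QSC library. In the 356 QSC Myog-low barcodes Mymk was at 0, which allows up to 3.67 CPM.

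Within the ASC library, Mymk was concentrated in Myog-high barcodes, which held 495 of its 587 UMIs, or 84.3%. They reached 554.5 CPM (507 to 606), against 15.1 CPM (11.04 to 20.2) in cycling, 13.96 CPM (6.38 to 26.5) in non-muscle, 11.3 CPM (7.89 to 15.7) in contractile-high and 2.32 CPM (0.478 to 6.78) in Myog-low barcodes. The cycling and non-muscle levels were not apart, nor were the non-muscle and contractile-high levels. The cycling and contractile-high levels lay above Myog-low, and the non-muscle interval overlapped it. Of the 45 Mymk UMIs in cycling barcodes, 29 lay in the 7 cycling barcodes that also passed the Myog minimum, where the level was 287 CPM (192 to 412), and 16 lay in the other 126, at 5.57 CPM (3.18 to 9.05). At full depth 68.4% of Myog-high barcodes (56.7% to 78.6%) and 1.55% of Myog-low barcodes (0.322% to 4.48%) had a Mymk UMI. Macrophage and monocyte barcodes, with a median of 6245.5 UMIs, had one in 7.78%. After each barcode was thinned to 1200 UMIs the shares were 33.3% (22.9% to 45.2%) of 75 Myog-high barcodes, 0.521% of 192 Myog-low barcodes and 0 of 88 macrophage and monocyte barcodes, which allows a share of up to 3.41%.

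Mymx, the partner of Mymk, gave fewer UMIs and was also found mainly in Myog-high barcodes. It had 70 UMIs in the ASC library (7.87 CPM, 6.13 to 9.94) and 0 in the QSC library. Counted against 3 UMIs over the QSC library, its level was 3.05-fold higher in ASC. The interval of the log2 ratio began at 1.27. Of the 70, 53 were in Myog-high barcodes (59.4 CPM, 44.5 to 77.7), 8 in cycling, 7 in contractile-high, 2 in non-muscle and 0 in Myog-low barcodes. Every one of the 14 Myog-high barcodes with a Mymx UMI also had a Mymk UMI, beside 52 of all 76. In cycling barcodes 2 of the 6 with Mymx had Mymk, and over all ASC contractile-low muscle barcodes 16 of 20.

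Jam3 was detected in both libraries, with 33 UMIs in QSC (28.4 CPM, 19.5 to 39.9) and 394 in ASC (44.3 CPM, 40.0 to 48.9). On the log2 scale ASC stood 0.64 above QSC (0.13 to 1.20). The library ratio hid a difference by class. Jam3 stood at 33.0 CPM (21.8 to 48.0) in QSC Myog-low, 33.2 CPM (24.1 to 44.8) in ASC Myog-low and 29.6 CPM (23.7 to 36.5) in ASC cycling barcodes, and these 3 levels were not apart. It stood at 276 CPM (242 to 312) in ASC Myog-high barcodes, above every other group of at least 20 barcodes. Of the 88 Jam3 UMIs in cycling barcodes, 33 lay in the 7 that also passed the Myog minimum (326 CPM, 225 to 458). The other 126 cycling barcodes held 55 UMIs and stood at 19.1 CPM (14.4 to 24.9). The ASC over QSC log2 ratio was 0.01 (-0.72 to 0.76) among Myog-low barcodes and 0.99 (0.46 to 1.56) over all contractile-low muscle barcodes. Contractile-high barcodes held 5.18 CPM in ASC and non-muscle barcodes 1.55 CPM. With each barcode weighted alike the library log2 ratio was -0.14, so the direction of the library difference depended on the weight of deep barcodes.

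Jam2, which binds Jam3 on the neighbouring cell, was close to the limit of detection. It had 7 UMIs in QSC (6.02 CPM, 2.42 to 12.4) and 11 in ASC (1.24 CPM, 0.617 to 2.21). Of the 7 QSC UMIs, 6 lay in non-muscle barcodes (55.9 CPM, 20.5 to 122), a class of 20 barcodes with mostly fibroblast, 16 with mostly macrophage, 8 with mostly endothelial and 2 with mostly mural markers. The ASC UMIs were spread as 4 in Myog-high, 3 in non-muscle, 2 in cycling, 2 in Myog-low and 0 in contractile-high barcodes. In contractile-low muscle barcodes Jam2 had 1 UMI in 1 of 366 QSC barcodes and 8 UMIs in 5 of 402 ASC barcodes.

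Cdh15 was the cadherin with usable depth, 221 UMIs in QSC (190 CPM, 166 to 217) and 1052 in ASC (118 CPM, 111 to 126), a log2 ratio of -0.69 (-0.90 to -0.47). Most of its UMIs, 213 of 221 in QSC and 994 of 1052 in ASC, lay in contractile-low muscle barcodes. The level was 257 CPM (223 to 294) in QSC Myog-low, 291.5 CPM (263 to 322) in ASC Myog-low and 282 CPM (248.5 to 319) in ASC Myog-high barcodes. These 3 did not differ beyond their intervals, and the ASC over QSC log2 ratio among Myog-low barcodes was 0.18 (-0.06 to 0.43). ASC cycling barcodes stood lower, at 123 CPM (110.5 to 136), a log2 ratio of -1.25 (-1.46 to -1.04) against ASC Myog-low barcodes. Contractile-high barcodes held 16.2 CPM in ASC and 18.6 CPM in QSC. Without cycling barcodes the contractile-low muscle ratio of ASC over QSC went from -0.40 (-0.61 to -0.18) to 0.16 (-0.07 to 0.39). Library-wide, 65.0% of kept ASC barcodes and 20.2% of kept QSC barcodes were contractile-high; the part of that difference in the library ratio of Cdh15 was not tested, and within contractile-high barcodes the ratio was -0.21 (-1.65 to 1.73).

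Cdh2 was sparse and had another distribution. It had 7 UMIs in QSC (6.02 CPM, 2.42 to 12.4) and 30 in ASC (3.37 CPM, 2.28 to 4.81), a log2 ratio of -0.84 (-2.05 to 0.59). All 37 UMIs lay in contractile-low muscle barcodes, and 26 of the 30 ASC UMIs lay in cycling barcodes. Cycling barcodes stood at 8.74 CPM (5.71 to 12.8), against 2.32 CPM (0.478 to 6.78) in Myog-low and 1.12 CPM (0.028 to 6.24) in Myog-high barcodes. The cycling over Myog-low log2 ratio was 1.91 (0.21 to 4.28), on 26 and 3 UMIs. QSC Myog-low barcodes stood at 7.34 CPM (2.69 to 16.0) and were not apart from the ASC cycling class.

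Cdon and Boc, the paired co-receptors, were both lower in ASC. Cdon had 51 UMIs in QSC (43.9 CPM, 32.7 to 57.7) and 143 in ASC (16.1 CPM, 13.5 to 18.9), a log2 ratio of -1.45 (-1.92 to -0.96). Boc had 31 UMIs in QSC (26.7 CPM, 18.1 to 37.9) and 34 in ASC (3.82 CPM, 2.65 to 5.34), a log2 ratio of -2.80 (-3.55 to -2.05). Both differences stayed past 2-fold within contractile-low muscle barcodes, at -1.21 (-1.69 to -0.71) for Cdon and -2.37 (-3.16 to -1.58) for Boc. Without cycling barcodes the Cdon ratio was -0.79 (-1.32 to -0.24), which ended its call, and among Myog-low barcodes alone it was -0.69 (-1.29 to -0.09), also within 2-fold. The Boc ratio was -1.83 (-2.95 to -0.80) among Myog-low barcodes.

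Cdon stood highest in QSC Myog-low barcodes, at 61.1 CPM (45.4 to 80.6). ASC Myog-low (37.9 CPM, 28.0 to 50.1) and ASC Myog-high barcodes (31.4 CPM, 20.8 to 45.3) came next and were not apart, and ASC cycling barcodes stood at 18.8 CPM (14.2 to 24.5). Boc stood at 33.0 CPM (21.8 to 48.0) in QSC Myog-low barcodes and, on 3 UMIs, at 27.9 CPM (5.76 to 81.6) in QSC non-muscle barcodes. In ASC it stood at 9.28 CPM (4.79 to 16.2) in Myog-low, 5.72 CPM (3.33 to 9.15) in cycling and 3.36 CPM (0.693 to 9.82) in Myog-high barcodes, which were not apart. Of the 402 ASC contractile-low muscle barcodes, 102 had a Cdon UMI, 30 had a Boc UMI and 7 had both, and with counts this sparse nothing can be read from the overlap.

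Myof had 2 UMIs in QSC (1.72 CPM, 0.208 to 6.22) and 120 in ASC (13.5 CPM, 11.2 to 16.1), a log2 ratio of 2.97 (1.09 to 6.03). Like Cdh2, it was found mainly in cycling barcodes, which held 86 of its 120 ASC UMIs. The level there was 28.9 CPM (23.1 to 35.7), against 8.50 CPM (4.25 to 15.2) in Myog-low and 5.60 CPM (1.82 to 13.1) in Myog-high barcodes. ASC non-muscle barcodes held 23.3 CPM (13.0 to 38.4), not apart from cycling barcodes, and 14 of their 15 UMIs were in macrophage and monocyte barcodes. The cycling over Myog-low log2 ratio was 1.77 (0.86 to 2.82). At full depth Myof was present in 3 of the 76 Myog-high and 50 of the 133 cycling barcodes. Mymk was present in 52 and 17 of them. Cycling barcodes were deeper, with a median of 23156 UMIs against 10998.5. With each barcode thinned to 1200 UMIs, Mymk was in 25 of 75 Myog-high and 1 of 131 cycling barcodes. Myof was then in 4 of the 131 cycling barcodes (0.838% to 7.63%) and in 0 of the 75 Myog-high barcodes. That 0 allows a share of up to 4%, so the thinned Myof shares were not apart. Among contractile-low muscle barcodes the ASC over QSC log2 ratio was 4.05 (1.54 to 9.37) on 102 and 1 UMIs, and without cycling barcodes it was 2.59 (-0.10 to 7.98), which ended the call.

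Dbn1 had 24 UMIs in QSC (20.7 CPM, 13.2 to 30.7) and 449 in ASC (50.5 CPM, 45.9 to 55.4), a log2 ratio of 1.29 (0.70 to 1.95). Like Mymk and Jam3, it was concentrated in Myog-high barcodes, which held 349 of the 449 ASC UMIs. The level was 391 CPM (351 to 434) in Myog-high, 20.5 CPM (15.7 to 26.4) in cycling and 15.5 CPM (9.45 to 23.9) in Myog-low barcodes. In QSC, 12 of the 24 UMIs lay in the 46 non-muscle barcodes (112 CPM, 57.7 to 195), 6 in the single Myog-high barcode and 6 in Myog-low barcodes (7.34 CPM, 2.69 to 16.0). Among contractile-low muscle barcodes the ASC over QSC log2 ratio was 2.54 (1.73 to 3.51), and without the QSC barcode that held Mymk it was 3.54 (2.40 to 4.99). With each barcode thinned to 1200 UMIs the library ratio was 0.44 (-0.60 to 1.61), which ended the call.

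**Figure D2:**
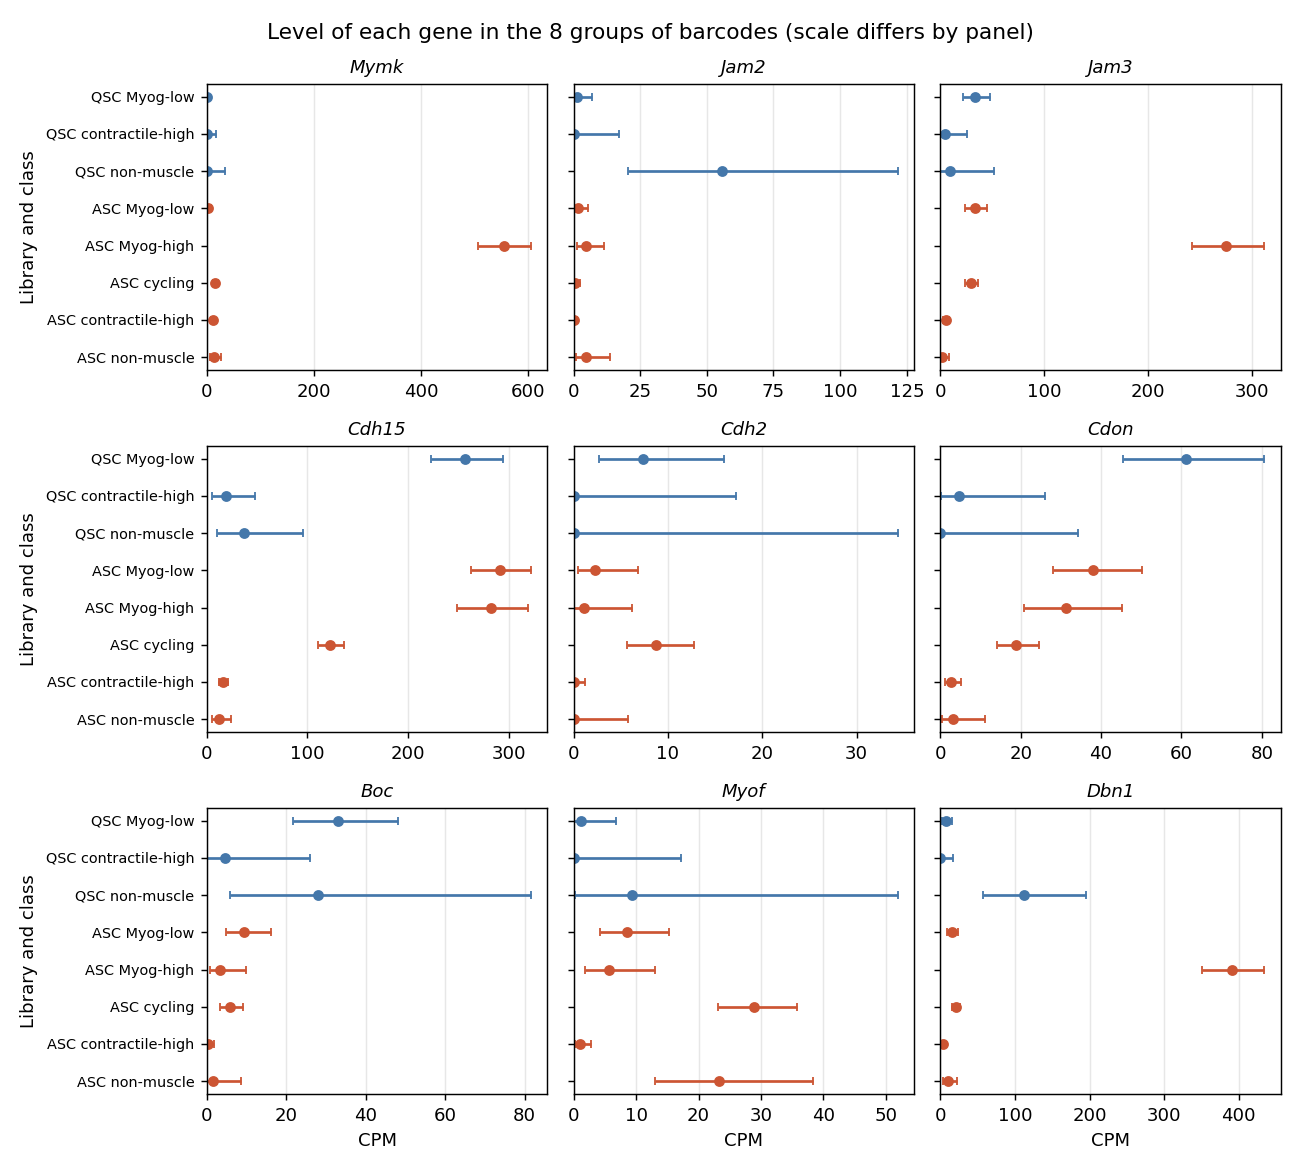
Level of each gene (CPM, linear axis from 0, a different scale in each panel) in the 8 library and class groups of at least 20 barcodes, QSC in blue and ASC in orange, 1 library each; bars are exact 95% Poisson intervals. Mymk (554.5 CPM), Dbn1 (391 CPM) and Jam3 (276 CPM) peaked in ASC Myog-high barcodes, Myof (28.9 CPM) in ASC cycling barcodes, and Cdon (61.1 CPM) in QSC Myog-low barcodes.

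Among contractile-low muscle barcodes the ASC over QSC comparison again called 3 of 8 members higher (Mymk, Myof and Dbn1) and 2 lower (Cdon and Boc), where 14.9% of 9905 genes were called higher and 20.5% lower. For Mymk, Dbn1 and Jam3, the difference between Myog-high and Myog-low barcodes of the ASC library was larger than that between the libraries. The log2 ratio was 7.90 (6.35 to 10.18) for Mymk, or 5.82 (5.14 to 6.58) with a minimum of 10 Myog UMIs per 10000, 4.66 (4.01 to 5.39) for Dbn1 and 3.05 (2.58 to 3.55) for Jam3. Cdh15, at -0.05 (-0.28 to 0.19), and Cdon, at -0.27 (-0.997 to 0.43), stayed within 2-fold. So 3 of 5 members with 20 UMIs were called higher and 0 of 5 lower in Myog-high barcodes, where 6.34% of 7054 genes were called higher and 7.73% lower. Between cycling and Myog-low barcodes, 3 of 8 members were called higher (Mymk, Cdh2 and Myof) and 2 lower (Cdh15 and Cdon), where 12.7% of 8797 genes were called higher and 11.3% lower. The cycling over Myog-low ratio of Mymk was 2.71 (1.07 to 5.04), on 45 UMIs of which 29 were in the 7 cycling barcodes past the Myog minimum.

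Binned by Myog, the contractile-low muscle barcodes of the ASC library split the members into those that followed Myog and those that did not. Mymk stood at 2.93 CPM (0.950 to 6.83) in the 198 barcodes without Myog, 5.70 CPM (3.12 to 9.56) in 121 barcodes up to 5 Myog UMIs per 10000, 66.7 CPM (40.7 to 103) in 26 barcodes up to 20, and 726 CPM (664 to 793) in 57 barcodes above 20. Dbn1 went from 16.4 and 13.8 CPM in the lower bins to 83.3 CPM (53.9 to 123) and 494 CPM (443 to 550). Jam3 went from 32.2 and 17.5 CPM to 50.004 CPM (28.0 to 82.5) and 381 CPM (336 to 429). For Mymk and Dbn1 both upper bins lay above both lower bins beyond their intervals, whereas the interval of Jam3 in the third bin overlapped that of the bin without Myog. Cdh15 varied less and without that order, at 198, 145, 363 and 272 CPM. Myof ran the other way at the top, at 14.04, 28.5, 20.002 and 2.88 CPM, and Cdon, at 34.5, 17.9, 53.3 and 20.2 CPM, and Boc, at 8.19, 6.11, 6.67 and 1.44 CPM, showed no rise with Myog. Pax7 stood at 52.7, 22.4, 33.3 and 1.44 CPM over the same bins. The bins differed in depth and cycling: the second held 69 cycling barcodes and a median of 20185 UMIs, against 5 cycling barcodes and 11606 UMIs above 20.

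**Figure D3:**
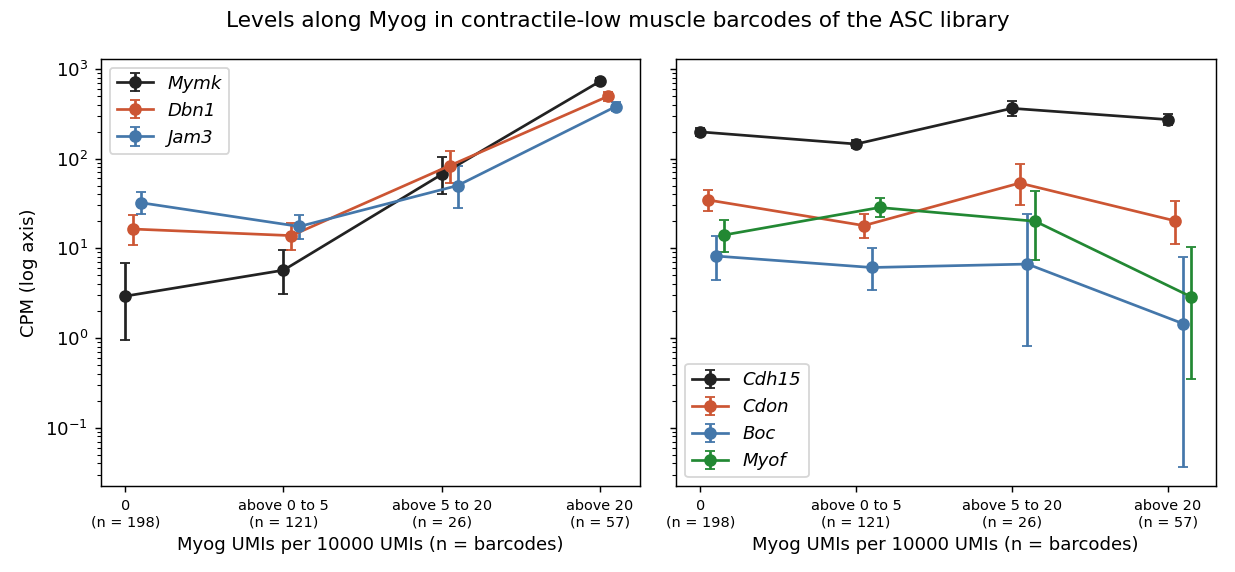
CPM (log axis) of 7 members over 4 bins of Myog UMIs per 10000 in the 402 contractile-low muscle barcodes of the single ASC library; bars are exact 95% Poisson intervals and n is the number of barcodes. Mymk goes from 2.93 to 726 CPM, Dbn1 from 16.4 to 494 CPM and Jam3 from 32.2 to 381 CPM, whereas Cdh15 stays between 145 and 363 CPM.

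Most barcodes with the highest Myog rates held all 3 genes that followed it. Whether the 3 shared barcodes more often than their separate shares would give was not tested. Above 20 Myog UMIs per 10000, 82.5% of the 57 barcodes had a Mymk UMI, 86.0% a Jam3 UMI and 91.2% a Dbn1 UMI, and 41 of the 57 had all 3. Without Myog 1 of 198 barcodes had all 3. The lowest, median and highest Mymk counts per barcode above 20 were 0, 6 and 50 UMIs, and the highest rate was 22.9 UMIs per 10000. Of the 72 contractile-low muscle barcodes with a Mymk UMI, 67 had a Myog UMI, 59 a Dbn1 UMI, 51 a Jam3 UMI and 8 a Pax7 UMI. Over all 402 such barcodes, 204 had a Myog, 106 a Dbn1, 139 a Jam3 and 101 a Pax7 UMI. In the Myog-high class, 49 of 52 barcodes with Mymk had Dbn1 and 43 had Jam3, beside 55 and 53 of all 76. Barcodes of one library are not replicates, and deeper barcodes show more genes, so these counts describe this pool of cells.

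**Figure D4:**
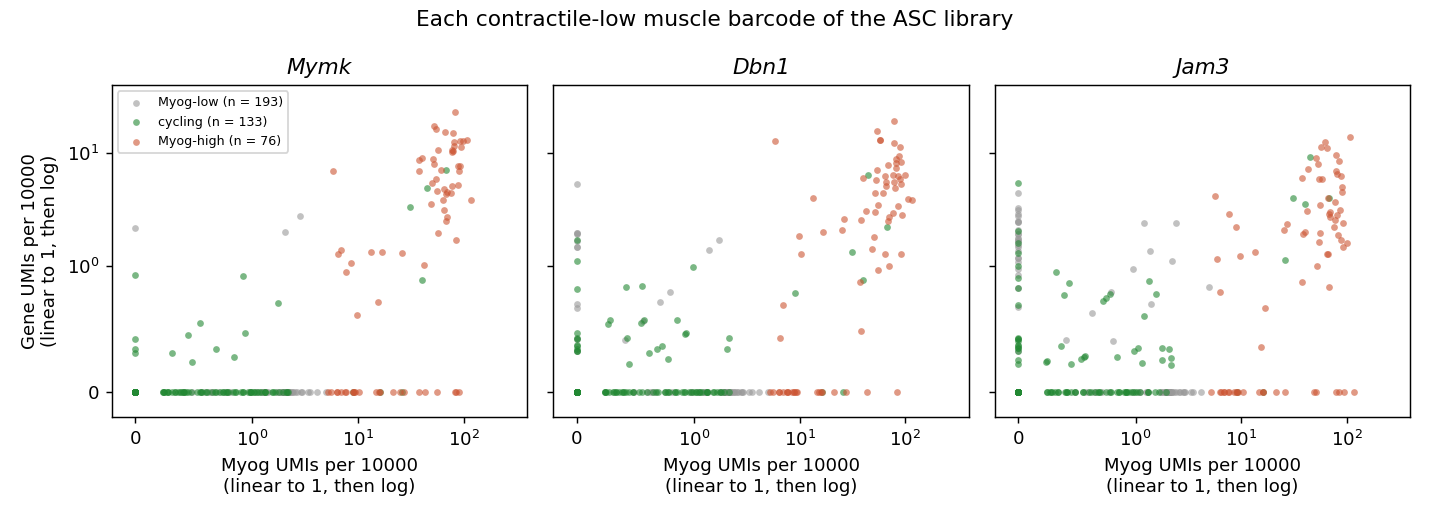
Each point is 1 contractile-low muscle barcode of the ASC library (402 in all), with Myog UMIs per 10000 on the horizontal and Mymk, Dbn1 or Jam3 UMIs per 10000 on the vertical axis (both linear to 1, then log), coloured by class. Most barcodes above 20 Myog UMIs per 10000 carry the 3 genes, and 10 of 57 show no Mymk UMI.

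Genes were also counted in lists of related genes, and the counts and medians of each list include the members that belong to it. The 56 other listed genes with 20 UMIs included 6 called higher and 18 called lower in the ASC library, where 12.4% of all tested genes were called higher and 21.3% lower. With TMM scaling 9 were higher and 13 lower, and no share over all genes was computed for that scaling. Among fusion membrane proteins and ferlins, 11 of 12 genes were tested: 7 were called higher and 1 lower, with a median log2 ratio of 1.38, beside a median of -0.10 over all tested genes. Without the members, 5 of 9 were called higher and 1 lower. Apart from Mymk, Myof and Mymx, those higher were Cav3, Bin1, Bin3 and Ehd1, genes of membrane shaping and of the muscle caveolae. The lowest were Ehd2 (281 ASC and 100 QSC UMIs) at -1.45 (-1.78 to -1.10) and Dnm2, dynamin, at -0.02 (-0.56 to 0.57). Within contractile-low muscle barcodes 7 of 10 tested genes of the list were called higher, with a median of 1.47, or 5 of 8 without the members. Cav3 and Bin1 are also expressed in mature fibres. The 10 contractile genes together stood at 17219 CPM in QSC and 19114 CPM in ASC contractile-low muscle barcodes. Acta1 alone, 1 of these genes, stood at 5207 and 4800 CPM. Their share of UMIs set this class, so their levels in it are capped by the 5% limit. The part of fibre transcripts in these counts was not tested.

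The actin remodelling list stood close to all genes. Of its 20 genes 19 were tested, with 1 called higher (Dbn1), 3 lower and a median of -0.07. Dbnl, a drebrin-like actin-binding protein, was next to Dbn1 at 0.93 (0.39 to 1.53), and the lowest were Myh10, a non-muscle myosin, at -1.35 (-2.22 to -0.40) and Dock1, an activator of Rac1 in myoblast fusion, at -1.25 (-2.14 to -0.27). The third called lower was Wipf1, at -1.01. Within contractile-low muscle barcodes Dbn1 was called higher and 0 of the 19 lower.

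The cadherin, CDON and BOC, and JAM lists held genes called lower and none called higher, where 21.3% of all genes were called lower. Endothelial and fibroblast markers differed in the same direction: the 10 endothelial markers summed to 187 CPM in QSC and 35.7 CPM in ASC, and the 10 fibroblast markers, of which Pdgfra was at 0 in ASC, to 3049 and 340 CPM. Their part in these counts was not tested. Within contractile-low muscle barcodes, where 20.5% of all genes were called lower, the counts were 2 of 7 for the cadherin list, 6 of 12 for the CDON and BOC list and 0 of 5 for the JAM list. Without the members these counts were 2 of 5, 4 of 10 and 0 of 4. Over the whole libraries, of the cadherins and catenins, 7 of 10 were tested: 0 were called higher and 4 lower, with a median of -1.03. Afdn, afadin, stood at -2.36 (-2.94 to -1.77) and Jup, plakoglobin, at -1.98 (-2.33 to -1.62), while Ctnnb1, β-catenin, stood at -0.45 (-0.75 to -0.14) beside Cdh15. The others called lower were the catenins Ctnna1, at -1.03, and Ctnnd1, at -1.43. Of the CDON and BOC partners, 12 of 14 were tested: 0 were called higher and 6 lower, with a median of -1.21. Without Cdon and Boc, 4 of 10 were called lower. Gas1, a Hedgehog co-receptor, was lowest at -3.23 (-3.40 to -3.07), on 708 QSC and 576 ASC UMIs, followed by Boc. Mapk14, the p38α kinase, at 0.35 (-0.11 to 0.85), and Bnip2 at -0.22 (-0.55 to 0.11) were the highest of the list. Of the JAM family and its junction scaffold, 6 of 9 were tested, 0 higher and 2 lower: Esam, an endothelial adhesion receptor, at -1.89 (-2.82 to -0.89) and Prkci at -1.07 (-1.86 to -0.20).

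Other adhesion receptors of muscle cells were mixed. Of the 11 genes, 9 were tested, 1 higher and 4 lower, with a median of -0.99. Adam12 was higher at 2.29 (0.39 to 5.36) on 75 ASC and 2 QSC UMIs, and Itga7, the laminin receptor of muscle, was next at 0.71 (0.32 to 1.12). Kirrel, whose fly relatives act in myoblast fusion, stood at -2.54 (-3.55 to -1.51) and Vcam1, a satellite cell adhesion receptor, at -1.67 (-1.84 to -1.51), and the tetraspanins Cd9, at -1.16, and Cd81, at -1.54, were the others called lower. Of the phosphatidylserine receptors and scramblase, 0 of 4 genes had 20 UMIs. In contractile-low muscle barcodes 10 of the 54 other listed genes were called lower, where 20.5% of all tested genes were. Over the libraries it was 18 of 56, where 21.3% of all tested genes were.

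**Figure D5:**
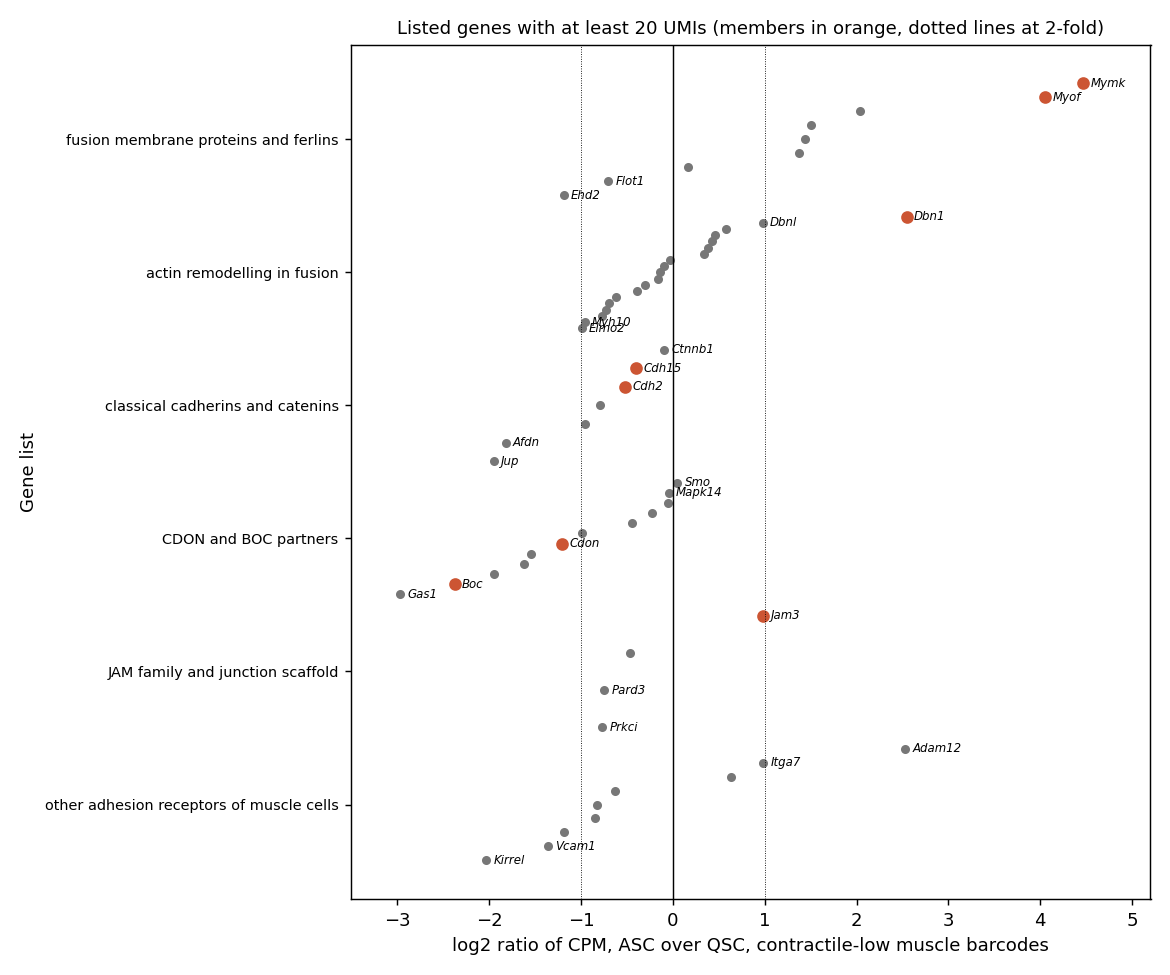
log2 ratio of ASC over QSC levels in contractile-low muscle barcodes (1 library each) for listed genes with at least 20 UMIs and a UMI in both libraries, 1 row per list, members in orange, dotted lines at 2-fold. Mymk (4.47), Myof (4.05) and Dbn1 (2.54) lie to the right, and Boc (-2.37) and Cdon (-1.21) to the left; Mymx, with 0 QSC UMIs, has no ratio and is not drawn.

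Profiles over the 8 groups of barcodes named other genes with patterns like those of the 6 members with at least 100 UMIs. The measure was Pearson's r of log2(CPM + 10) over the 8 groups, among 6971 genes, and is a description only, since the groups share 2 libraries. Actc1, cardiac actin, was among the 3 genes most like Mymk (r = 0.95), after Dcaf10 and Svbp (both r = 0.96). Dll1, a Notch ligand, was among those most like Jam3 (r = 0.97), with Pnmal2 (r = 0.97) and Acsl3 (r = 0.95). Cdh15 was most like Sytl2, Spats2l and Fgfr4 (r = 0.99 for each of them), of which Fgfr4 is a growth factor receptor of satellite cells and was also a marker used to keep muscle barcodes apart from others. Cdon was most like Tcaf1, Sulf1 and Acot1 (r = 0.98 for each), Myof most like Ppp1ca (r = 0.98), Mfsd10 (r = 0.96) and Baiap2 (r = 0.95), and Dbn1 most like Pde2a, Scrib (both r = 0.97) and Prune2 (r = 0.96). Among the members themselves, Cdh15 and Cdon had r = 0.92, Jam3 and Cdh15 had r = 0.83, Mymk and Jam3 had r = 0.79, Mymk and Dbn1 had r = 0.74, Jam3 and Dbn1 had r = 0.73 and Jam3 and Cdon had r = 0.69, whereas Myof had r between -0.10 and 0.19 with the other 5.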

How the data were processed

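Per the file headers, the deposited matrices hold UMI counts per gene and barcode from Cell Ranger 6.0.2. Per the labels the authors used Cell Ranger 7.1.0 and mm10, so the version is uncertain. The counts were used as deposited, without normalization by the authors, and 99.6% of gene IDs were found in GENCODE M21 (GRCm38). The authors' limit of 1% mitochondrial UMIs was run as an alternative, and doublets were not removed. UMIs were summed over barcodes and given as CPM with exact Poisson intervals. Ratios of ASC over QSC carry exact conditional binomial intervals, and shares Clopper-Pearson intervals (Python 3.11.15, scipy 1.17.1). TMM factors came from edgeR 4.0.16, and the functions were tested on simulated counts. A gene was called at 2-fold or more with an interval on that side of 0 and at least 20 UMIs. A barcode was non-muscle with at least 3 markers of 1 such cell type, and more of them than of 12 satellite cell markers.

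The members and lists were chosen with earlier results of these data known. Named genes were the 9 members, the 2 highest and 2 lowest of each list (with a ratio and 20 UMIs), and the 3 genes most like each member. One gene that this rule names is not reported here. Mymx, Cav3, Bin1, Bin3, Ehd1, Wipf1, Ctnna1, Ctnnd1, Cd9 and Cd81 were named after their values were seen. Of genes overlapping members, Gm48796 (antisense to Jam3) had 2 QSC and 0 ASC UMIs, and Gm15485 (antisense to Cdh2) had 0.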

Additional observations from a re-analysis of the deposited data

Results flagged for a closer look

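Barcodes left out by the filters still held UMIs of 3 members above the 3 counts that a count of 0 allows. In the 182 ASC barcodes left out, Cdh15 had 16 UMIs (97.6 CPM, 55.8 to 158), Cdon had 5 UMIs (30.5 CPM, 9.90 to 71.2) and Myof had 4 UMIs (24.4 CPM, 6.65 to 62.5). In the 250 QSC barcodes left out, Cdh15 had 2 UMIs (10.9 CPM, 1.32 to 39.3), Cdon had 1 and Myof had 0.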

How the results depend on the processing

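Of the 9 library ratios of ASC over QSC, the 5% mitochondrial limit, no gene minimum and a total without mitochondrial and contractile UMIs kept every direction. The 1% limit left 86 QSC barcodes and gave Jam3 -1.07, Cdh15 -0.17, Cdon -0.43 and Boc -1.91 on 2, 4, 1 and 1 QSC UMIs. TMM scaling moved Cdh15 to -0.38. Weighting barcodes alike gave Jam3 -0.14, Cdh15 -1.125, Boc -3.71 and Dbn1 0.65. Thinning to 1200 UMIs gave Jam3 -0.075, Cdh15 -1.14, Cdon -1.92 and Dbn1 0.44. Without non-muscle barcodes Jam2 was 0.032 and Dbn1 2.24; in contractile-low muscle barcodes only, Jam2 was 0.38, Cdh15 -0.40 and Dbn1 2.54; in contractile-high barcodes only, Cdh15 was -0.21 and Cdon -0.85. Between Myog-high and Myog-low barcodes, a minimum of 10 Myog UMIs per 10000 gave Mymk 5.82 and Cdh15 -0.30, and 1 Myog UMI gave Jam3 2.39. In the contractile-low ratio, leaving out cycling barcodes gave Jam3 1.91, Cdh15 0.16, Cdh2 -1.996 and Dbn1 3.53, and leaving out the QSC barcode with Mymk, chosen after seeing the data, gave Dbn1 3.54. Other listed genes called lower numbered 10 in contractile-low muscle barcodes, against 18, where 20.5% and 21.3% of all tested genes were called lower. The causes were not tested. No ratio could be given where a group had no or too few UMIs: Mymk, Jam2, Cdh2 and Myof at the 1% limit, thinned and in contractile-high barcodes; Boc in contractile-high barcodes; Dbn1 at the 1% limit and in contractile-high barcodes; Mymk and Jam2 for Myog-high over Myog-low, and Myof for the contractile-low ratio, at a contractile limit of 2%; Mymk at 5000 UMIs per barcode and without its QSC barcode. With 1 library per group, no replicate could be left out. No paired analysis was possible because the labels give no replicate numbers and each group is 1 library.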
